A study of Caenorhabditis elegans with 8 samples.

Results

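Whole Caenorhabditis elegans exposed for 1 h to 200 µM magnolol were compared with worms given DMSO, across every gene row of a deposited RNA-seq count table. The comparison takes 3 magnolol libraries and 3 control libraries, chosen by their titles, of 8 libraries in the series. The remaining libraries are of honokiol, the positional isomer of magnolol, and enter here only in an alternative fit. Of 21309 rows in the table, 16170 passed a filter on low counts and were tested. Caenorhabditis elegans is a small soil nematode, and DMSO is the solvent given to the controls. The sources used here give no strain, stage, sex or culture conditions for the worms. Nothing in the labels says whether replicates are separate cultures, and the p-values therefore measure only the spread between these libraries, which may be technical. Total counts per library were 33228081, 33939243 and 35888186 with magnolol and 33645839, 33041126 and 30274330 in control.

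Magnolol is a biphenol of Magnolia bark, carrying hydroxyl and allyl groups on both joined rings. Small lipophilic compounds of this kind are handled in nematodes by enzymes that oxidise them, enzymes that attach sugar or glutathione, and exporters that remove the products, largely in the intestine. Nuclear hormone receptors, which are transcription factors that bind small lipids, control many of these genes, and the genes for reactive-damage and heat responses are controlled by other factors. The question of the comparison is which transcripts differ after this short exposure, with attention to functions other than the best known detoxification enzymes.

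Most genes that changed with magnolol were higher, and most of those lay outside the detoxification and heat shock lists used here. There were 361 rows called higher (2.23% of those tested) and 137 called lower (0.847%), where a call is a Benjamini-Hochberg adjusted p under 0.05 over all tested rows from the quasi-likelihood test of edgeR. Of the higher rows, 167 rose at least 2-fold and 83 at least 4-fold, and of the lower rows 15 fell at least 2-fold. The median log2 fold change was 0.93 among the higher rows and -0.59 among the lower rows, against -0.007 over all rows tested. In all 361 and all 137 the magnolol and control libraries did not overlap, as in 11.6% of all tested rows in the higher direction and 11% in the lower one. The cytochrome P450, UDP-glucuronosyltransferase, glutathione S-transferase, ABC transporter and inducible heat shock lists held 75 of the higher rows, and 286 lay outside them, 110 of these raised at least 2-fold. These lists were drawn from gene symbols, so rows with only a sequence name or no symbol may belong to those families uncounted. Carboxylesterase and short-chain dehydrogenase genes were kept in other lists and count as outside. By name, 230 of the higher rows have a lettered gene name, 112 only a sequence name and 18 no symbol, and 1 carries a date in place of its symbol. The number of lower rows depended on single libraries, at 87, 57 and 49 without magnolol 1, 2 and 3 and 76 without control 1. Of all called rows 72.5% were higher, and 61.5% were with upper-quartile scaling. Levels below are in CPM, read counts scaled to library size, in libraries 1, 2 and 3 of each group, and changes are log2 fold changes of magnolol over control ± SE. In whole worms, less RNA per cell and fewer cells of a type cannot be told apart.

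**Figure D1:**
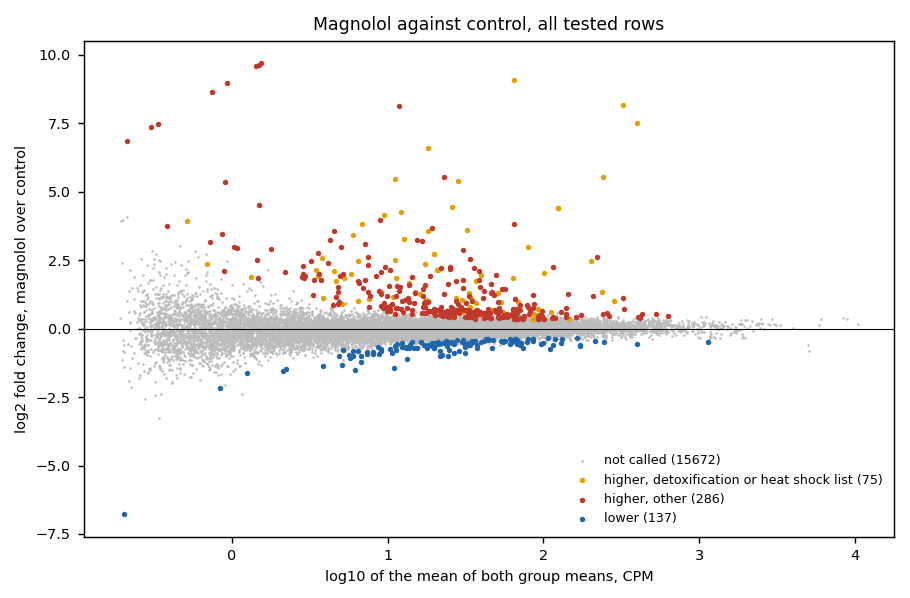
Each tested row is a point, with the log10 of the mean of both group means in CPM on the x axis and the log2 fold change of magnolol over control on the y axis. Orange marks the 75 higher rows of the detoxification and heat shock lists, red the 286 other higher rows, blue the 137 lower rows and grey the rows not called; the red points reach far above 2 while nearly all blue points lie between 0 and -2.

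Several of the largest rises outside the detoxification lists were in genes known only by a sequence name, for which the files give no function. C06E4.3 (row gene18067) stood at 45.2, 44.3 and 45.2 CPM with magnolol, against 0.638, 1.09 and 1.19 CPM in control, a change of 5.54 ± 0.18 (adjusted p = 2.05e-10). Its annotated neighbour C06E4.6, named after its value was seen, had 23.5, 23 and 24.7 CPM with magnolol, against 0.174, 0 and 0.066 CPM in control. Both groups were tight and far apart in each gene. In the WBcel235 annotation this pair of protein-coding genes lies at chrIV:7257100-7262138, on opposite strands. F12E12.11 (row gene5536), listed as nta-1 in the current annotation, had 34.8, 38.1 and 33.9 CPM with magnolol, against 2.41, 2.80 and 3.24 CPM in control (3.66 ± 0.14, adjusted p = 1.43e-09).

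Among the T16G1 and E02C12 genes, listed together here by their sequence names, 66.7% of tested members were called higher. This was the highest share among the lists, which were chosen with earlier results of these data known, so the rank is a description only. Of 9 tested members (14 in the table) 6 rose, and the median change was 1.55. T16G1.6 had 107.1, 131.7 and 121.9 CPM with magnolol, against 8.35, 8.56 and 8.39 CPM in control (3.83 ± 0.11, adjusted p = 6.55e-11). The control libraries were nearly equal, and the lowest magnolol library stood far above them. T16G1.7, T16G1.6, T16G1.5 and T16G1.4 are consecutive protein-coding genes on the minus strand at chrV:12932941-12941847, and all of them rose, by 1.77, 3.83, 0.97 and 2.55. T16G1.4 had 56.5, 58.9 and 58.0 CPM with magnolol, against 11.1, 7.74 and 10.8 CPM in control. The sources used here do not say how a read shared by such related genes was counted, which makes their separate values uncertain.

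Other rises of this kind were in lettered genes. The transcript of nhr-210, a nuclear hormone receptor, had 31.2, 30.9 and 27.3 CPM with magnolol, against 3.28, 2.97 and 3.50 CPM in control (3.20 ± 0.14, adjusted p = 3.97e-09). The transcript of bigr-1 had 55.7, 53.0 and 52.2 CPM with magnolol, against 5.25, 8.33 and 8.55 CPM in control (2.87 ± 0.16, adjusted p = 4.05e-08). The plot of the largest rises also holds the remaining sequence-named genes. Their changes were 2.26 for Y94H6A.10, 2.26 for T24E12.5, 2.21 for W09G12.7, 2.20 for ZK742.3, 2.10 for F19B2.5 and 1.92 for F59B1.8. Each of these calls held when any 1 library was left out.

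**Figure D2:**
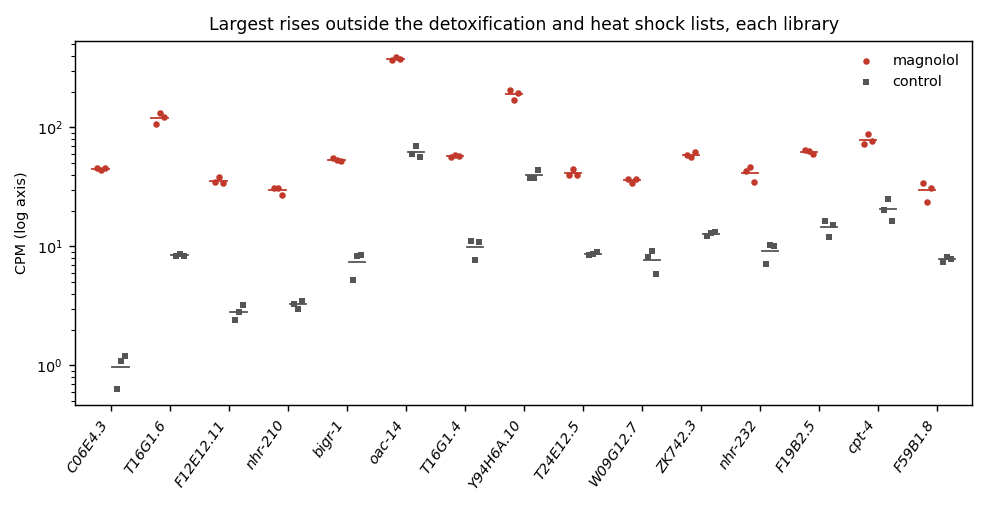
CPM on a log axis for the 15 largest rises at or above the median level outside the detoxification and heat shock lists, with magnolol libraries as red circles left of control libraries as grey squares and a bar at each group's mean. The genes were chosen among called rows whose groups did not overlap, so the separation of the groups comes from that choice. The widest gap is in C06E4.3.

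Some transcripts had counts with magnolol and none in any control library. D1022.5 had 99, 98 and 92 counts with magnolol and 0 in each control, at least 94.3-fold higher against a floor of 3 counts over the control group. Y45G12C.4 stands on 2 rows with nearly equal counts, such as 96, 109 and 108 against 0, 0 and 0 (at least 102-fold higher); copies this alike are uncertain as separate genes. R10D12.6 had 62, 59 and 67 counts with magnolol and 0 in control (at least 61.1-fold higher). In the other direction Y57E12B.4 had 0 counts in each magnolol library, against 12, 15 and 13 in control (at least 13.7-fold lower), and its call was lost when any 1 library was left out (adjusted p between 0.0563 and 0.0976). These genes were named after their values were seen, and these floors cover counting error only.

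Some genes of sphingolipid metabolism rose with magnolol, gba-2 most and by about 8-fold. Sphingolipids are membrane lipids built on a long-chain base: serine palmitoyltransferase makes the base, ceramide synthases add a fatty acid, a glucosyltransferase adds glucose and glucocerebrosidases remove it. Of 26 tested members 7 rose and 19 were not called (26.9% called higher), with a median change of 0.13. The uncalled members ran from -0.22 to 0.32.

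For the first step, sptl-2, a serine palmitoyltransferase gene, had 42.1, 48.5 and 49.3 CPM with magnolol, against 20.8, 22.9 and 17.1 CPM in control (1.20 ± 0.12, adjusted p = 2.53e-05), and its relative sptl-3 was not called (0.32 ± 0.09, adjusted p = 0.0829). Among ceramide synthase genes, hyl-1 had 94.6, 108 and 101 CPM with magnolol, against 51.7, 58.6 and 57.3 CPM in control (0.86 ± 0.09, adjusted p = 4.29e-05), and hyl-2, named after its value was seen, changed by 0.67 ± 0.08 (adjusted p = 0.000158). The third, lagr-1, was not called (0.30 ± 0.12, adjusted p = 0.227). The glucosyltransferase gene cgt-1 had 24.6, 19.4 and 23.8 CPM with magnolol, against 6.79, 5.86 and 5.81 CPM in control (1.87 ± 0.14, adjusted p = 1.37e-06). Its relatives cgt-2 and cgt-3 were not called.

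The largest change of the list was in gba-2, a glucocerebrosidase gene, with 12.2, 13.7 and 12.8 CPM with magnolol, against 1.33, 1.94 and 1.29 CPM in control (3.08 ± 0.20, adjusted p = 2.55e-07). Its neighbour gba-1 was called at 0.35 ± 0.08 (adjusted p = 0.0335). That call was lost without magnolol 1, 2 or 3 (adjusted p = 0.117, 0.0586 and 0.18) and without control 1 or 2 (0.155 and 0.0667). Their relatives gba-3 (-0.22 ± 0.16, adjusted p = 0.519) and gba-4 (-0.14 ± 0.09, adjusted p = 0.463) were not called. The annotated spans of gba-1 and gba-2 overlap at chrII:2176741-2186434 on opposite strands, and without a stated strand setting the reads in the overlap cannot be told apart. The dihydroceramide desaturase homolog ttm-5 was called at 0.54 ± 0.11 (adjusted p = 0.0173), a call lost without magnolol 1, 2 or 3 (0.086, 0.0566 and 0.0536) and without control 1 or 2 (0.0906 and 0.0616). The values of gba-1 and ttm-5 were seen before they were named. Genes that break sphingolipids down further were not called, among them the sphingosine kinase gene sphk-1 (-0.07 ± 0.09) and the lyase gene spl-1 (-0.08 ± 0.09).

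**Figure D3:**
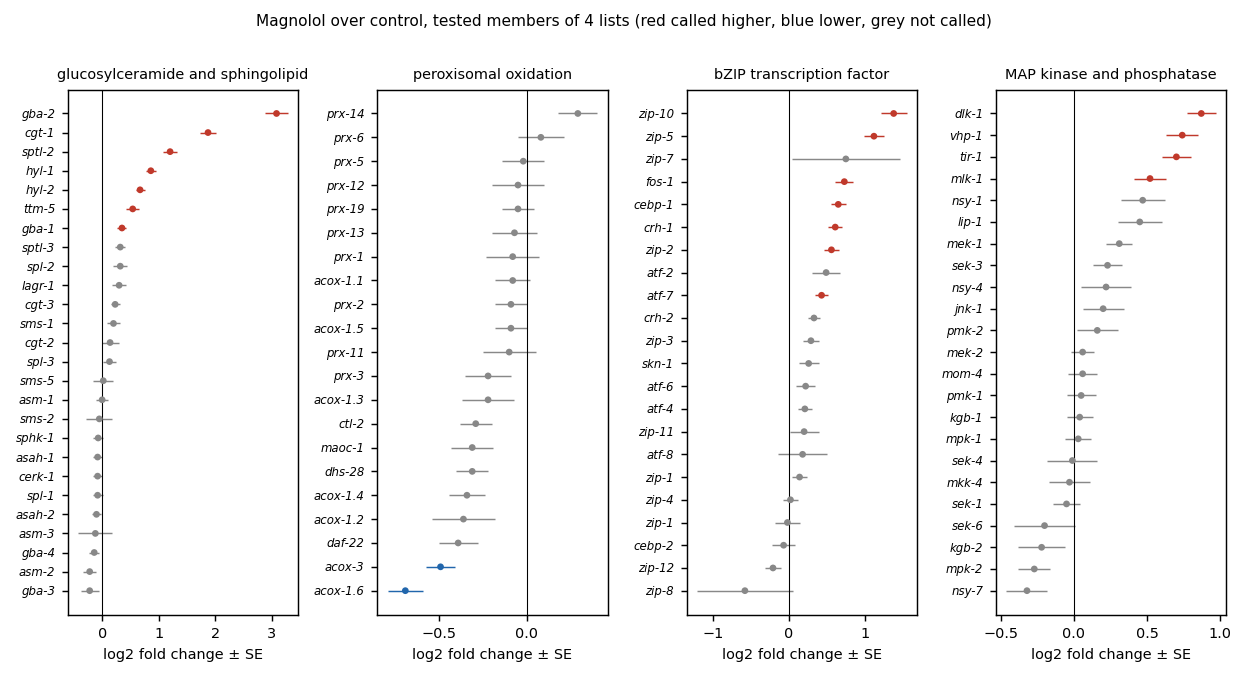
Log2 fold change of magnolol over control ± SE for the tested members of 4 lists, 1 row of the plot per member, with red for called higher, blue for called lower and grey for not called. The 7 sphingolipid, 7 bZIP and 4 MAP kinase members in red lie right of 0, and 19 of 21 peroxisomal members lie left of 0, acox-1.6 and acox-3 in blue.

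Other lipid and sterol genes changed singly and not as whole families. The transcript of cpt-4, of the carnitine acyltransferase family that carries fatty acids into mitochondria, had 72.7, 87.9 and 76.8 CPM with magnolol, against 20.2, 24.9 and 16.5 CPM in control (1.94 ± 0.13, adjusted p = 5.38e-07). Of 57 acyl-CoA synthetase, dehydrogenase and carnitine transfer rows 3 rose (5.26%) and 2 fell (3.51%), with a median of -0.02. The shares of all tested rows were 2.23% and 0.847%. With the exon-length correction 3 members of this list were higher and 4 lower. Only 1 rose without magnolol 3 or control 1, and only 1 fell without magnolol 1, 2 or 3 or control 1 or 2. The desaturase gene fat-5 rose by 0.72 ± 0.12 (adjusted p = 0.00351), at 36.8, 27.5 and 34.2 CPM with magnolol, against 18.7, 21.4 and 19.5 CPM in control, and fat-7 was not called (-0.04 ± 0.10). The transcript of sbp-1, the SREBP-type regulator of lipid synthesis, rose by 0.57 ± 0.10 (adjusted p = 0.00399). The lipase-type gene lips-5 rose by 1.34 ± 0.24 and the fatty acid and retinol binding gene far-3 by 1.05 ± 0.18. In their list of 37 lipase and lipid binding rows 3 rose (8.11%) and 21 had a change below 0. That list's median was -0.16, or -0.06 with the exon-length correction.

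Further lipid genes were named after their values were seen. The fatty acid amide hydrolase gene faah-2 had 278, 295 and 294 CPM with magnolol, against 117, 145 and 116 CPM in control (1.20 ± 0.10, adjusted p = 4.04e-06). Its relative faah-1 was called lower (-0.37 ± 0.09, adjusted p = 0.0381), with adjusted p of 0.109, 0.129 and 0.104 without magnolol 1, 2 and 3 and 0.167 and 0.102 without control 1 and 2. The faah-1 span also overlaps that of clec-51, another lower gene, on the opposite strand. Of the sterol genes, daf-36, whose oxygenase starts the conversion of cholesterol to the steroid hormones of the worm, rose by 0.96 ± 0.15 (adjusted p = 0.00195), and ncr-1, a Niemann-Pick type sterol transport gene, by 0.63 ± 0.11 (adjusted p = 0.00319). The abhd-5.1 gene, of a family that activates fat lipases, rose by 1.58 ± 0.13, and glo-3, needed for the lysosome-related gut granules, by 1.79 ± 0.14.

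Enzymes that act on esters and acyl groups also had raised members. Of 37 tested oac genes, which are annotated as O-acyltransferase homologs, 4 rose (10.8%) with a list median of 0.07. The transcript of oac-14 had 370.5, 389 and 374 CPM with magnolol, against 59.95, 69.8 and 56.0 CPM in control (2.61 ± 0.10, adjusted p = 1.43e-09), and oac-31, oac-6 and oac-20 rose by 1.57, 1.27 and 1.17. Of 34 carboxylesterase rows of the cest family 5 rose (14.7%) and 1 fell (2.94%), with a median of 0.04. Among all tested rows 2.23% rose and 0.847% fell. The transcript of cest-4 had 110, 132 and 116 CPM with magnolol, against 54.4, 48.97 and 51.7 CPM in control (1.21 ± 0.09, adjusted p = 1.68e-06), and cest-35.2 rose by 2.47 ± 0.29. The lower member was cest-10, at 26.8, 27.5 and 24.6 CPM with magnolol, against 39.3, 39.1 and 40.8 CPM in control (-0.60 ± 0.09, adjusted p = 0.00203). The transcript of emb-8, the NADPH-cytochrome P450 reductase that feeds electrons to all microsomal P450s, had 398, 494 and 437 CPM with magnolol, against 218, 206 and 192 CPM in control (1.11 ± 0.10, adjusted p = 9e-06). The magnolol libraries were about 2-fold above the controls in each of cest-4 and emb-8.

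Among transporters other than the ABC family, 5 of 113 solute carrier, sugar carrier and ion pump rows rose (4.42%), and the median was 0.07. The largest change was in swt-6, a SWEET-type sugar transporter gene, with 18.5, 13.9 and 15 CPM with magnolol, against 2.67, 2.38 and 4.89 CPM in control (2.26 ± 0.24, adjusted p = 3.93e-05). The P-type cation ATPase gene catp-3 had 189.5, 217 and 203 CPM with magnolol, against 89.8, 87.4 and 76.0 CPM in control (1.27 ± 0.10, adjusted p = 1.29e-06). Named after its value was seen, the phosphate transporter gene pitr-5 had 69.2, 64.3 and 67.4 CPM with magnolol, against 26.4, 27.7 and 26.2 CPM in control (1.32 ± 0.09, adjusted p = 3.32e-07). The tetraspanin membrane protein genes tsp-1 and tsp-2, neighbours on chromosome III, rose by 1.94 ± 0.26 and 1.53 ± 0.24, and were also named after their values were seen.

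Some genes of stress signalling rose, dlk-1 and vhp-1 among them, and most kinases of the list were not called. MAP kinase cascades pass stress signals from upstream kinases to transcription factors, and bZIP proteins are among those factors. Of 23 tested genes in the MAP kinase list, not all of them kinases or phosphatases, 4 rose (17.4%), with a median of 0.06. The transcript of dlk-1, the upstream kinase of a cascade known for axon regrowth, had 79.7, 99.0 and 93.6 CPM with magnolol, against 49.2, 52.1 and 47.8 CPM in control (0.87 ± 0.10, adjusted p = 7.39e-05). The phosphatase gene vhp-1, a negative regulator of the KGB-1 and PMK-3 kinases, had 94.6, 121.5 and 104 CPM with magnolol, against 66.7, 55.5 and 69.3 CPM in control (0.74 ± 0.11, adjusted p = 0.00133). The adaptor gene tir-1, which acts upstream of the p38 kinase in immunity, rose by 0.70 ± 0.10 (adjusted p = 0.00125). The upstream kinase gene mlk-1 was called at 0.52 ± 0.11 (adjusted p = 0.0143), and that call was lost without magnolol 2 or 3 (0.0793 and 0.0953) or control 1 or 2 (0.0774 and 0.0577). Of the other upstream kinases, nsy-1 (0.47 ± 0.15, adjusted p = 0.139), mek-1 (0.31 ± 0.09, adjusted p = 0.102), mom-4 (0.06 ± 0.10), mkk-4 (-0.03 ± 0.14) and sek-1 (-0.05 ± 0.09) were not called. Nor were the kinases pmk-1 (0.05 ± 0.10), kgb-1 (0.04 ± 0.09) and jnk-1 (0.20 ± 0.14). In each of dlk-1 and vhp-1 magnolol 2 was the highest library. After the correction for exon length described below, the changes were 0.75 for dlk-1, 0.63 for vhp-1, 0.51 for tir-1 and 0.39 for mlk-1. These genes were still called higher with that correction.

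Of 22 bZIP rows 7 rose (31.8%), with a median of 0.27. The transcript of zip-10 had 12.4, 12.1 and 13.9 CPM with magnolol, against 5.25, 5.62 and 3.86 CPM in control (1.38 ± 0.17, adjusted p = 0.000196), and zip-5 had 18.9, 17.5 and 19.2 CPM with magnolol, against 8.90, 8.86 and 7.83 CPM in control (1.12 ± 0.13, adjusted p = 9.18e-05). The cebp-1 gene, a target of the DLK-1 cascade in neurons, had 32.2, 37.02 and 36.1 CPM with magnolol, against 21.8, 22.6 and 22.7 CPM in control (0.65 ± 0.10, adjusted p = 0.0017). The CREB gene crh-1 rose by 0.61 ± 0.09 (adjusted p = 0.00165), the Fos gene fos-1 by 0.73 ± 0.12 and zip-2, an immune and translation-surveillance factor, by 0.56 ± 0.10. The p38 pathway factor atf-7 was called at 0.43 ± 0.09 (adjusted p = 0.0137), with adjusted p of 0.0992 without magnolol 3 and 0.0611 without control 1. The values of fos-1 and atf-7 were seen before they were named. The oxidative stress factor skn-1 was not called, at 120, 171 and 135 CPM with magnolol, against 132.5, 107 and 116 CPM in control (0.26 ± 0.13, adjusted p = 0.324), and its groups overlapped.

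Beside these, kreg-1, a gene named for its regulation by the KGB-1 kinase, had 3.15, 2.90 and 2.62 CPM with magnolol, against 0, 0.294 and 0.066 CPM in control (4.53 ± 0.62, adjusted p = 0.000548). The arsenite-inducible gene aip-1 rose by 0.71 ± 0.13 (adjusted p = 0.00471) and the ubiquitin ligase gene siah-1 by 0.58 ± 0.10 (adjusted p = 0.0039). These 3 were named after their values were seen. The autophagy receptor gene sqst-1 had 159, 179 and 159 CPM with magnolol, against 111.5, 112 and 120 CPM in control (0.53 ± 0.09, adjusted p = 0.00274), and was the only call among 54 autophagy genes.

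Of 192 nuclear hormone receptor rows 13 rose (6.77%) and the median was 0.10. The number was 8 without magnolol 2, 9 without magnolol 3, and 19 after the correction for exon length described below. Besides nhr-210, nhr-232 had 42.96, 46.25 and 34.91 CPM with magnolol, against 7.13, 10.2 and 10.2 CPM in control (2.17 ± 0.15, adjusted p = 6.73e-07). The low-level receptor transcript nhr-178 rose by 3.98 ± 0.21, and nhr-237 rose by 2.76 ± 0.24. In a fixed set of known stress and lipid genes, nhr-86 and mdt-15 had no row under those symbols. Its tested receptors, with known roles in drug and lipid responses, were not called: nhr-8 stood at 0.21 ± 0.09, nhr-49 at 0.16 ± 0.09 and daf-12 at 0.13 ± 0.11. The same held for the heat shock factor gene hsf-1 (0.10 ± 0.09), daf-16 (0.25 ± 0.10), hlh-30 (0.30 ± 0.12) and ahr-1 (0.36 ± 0.40). Another known regulator, pqm-1, was called higher (0.57, adjusted p = 0.00283), also with any 1 library left out.

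Among antimicrobial effectors, 4 of 77 lysozyme, saposin-like and related rows rose (5.2%), 2 fell (2.6%) and 71 were not called. The shares of all tested rows were 2.23% and 0.847%. The list median was -0.20, or -0.06 after the correction for exon length. The number that fell was 1 without magnolol 1, 2 or 3 and 4 without control 2. DESeq2 called 4 higher and 10 lower, and with the exon-length correction 5 were higher and 0 lower, so the balance of the list depends on the method. The neighbouring lysozyme genes lys-3 and lys-2 on chromosome V both rose. The transcript of lys-3 had 12.3, 11.8 and 13.2 CPM with magnolol, against 2.29, 2.47 and 2.67 CPM in control (2.33 ± 0.16, adjusted p = 6.61e-07), and that of lys-2 had 161, 143 and 163.5 CPM with magnolol, against 101.5, 91.8 and 113 CPM in control (0.61 ± 0.10, adjusted p = 0.00223). The infection response gene irg-2 rose by 1.03 ± 0.16 (adjusted p = 0.00156). Of 137 C-type lectin rows 4 rose (2.92%) and 1 fell (0.73%), near the 2.23% and 0.847% of all tested rows. The number that rose was 2 without magnolol 1 or 2 or control 1 or 3 and 1 without magnolol 3. The called rows include clec-210, at 9.46, 9.11 and 6.42 CPM with magnolol, against 0.464, 0.706 and 0.924 CPM in control (3.58 ± 0.28), and clec-51, at 35.9, 38.4 and 32.8 CPM with magnolol, against 59.4, 53.6 and 60.1 CPM in control (-0.69 ± 0.10, adjusted p = 0.000532). The galectin gene lec-10 rose by 0.66 ± 0.09 (adjusted p = 0.000475). The infection reporters irg-1 (-0.26 ± 0.15) and dod-24 (-0.12 ± 0.11) were not called.

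Rows called lower had smaller changes, with medians of -0.59 against 0.93 for those called higher, and Y70C5A.3 fell most among those at or above the median level. The list with most of them was the largest, that of F-box, MATH and BTB adaptors, many of which bring proteins to ubiquitin ligases. Smaller lists had larger lower shares, such as 9.52% for the peroxisomal list. The adaptor list had 6 lower and 4 higher of 296 rows (2.03% and 1.35%), against 0.847% and 2.23% of all tested rows. Its median was -0.13. Its number of lower rows was 2 without magnolol 2 or 3 and 3 without control 1, and its number of higher rows was 2 without any 1 of the magnolol libraries or control 3. Y70C5A.3 had 17.8, 16.1 and 15.4 CPM with magnolol, against 31.3, 34.7 and 32.2 CPM in control (-0.99 ± 0.11, adjusted p = 6.13e-05). F26G1.2 had 14.2, 11.2 and 18.1 CPM with magnolol, against 26.3, 29.6 and 30.6 CPM in control (-0.99 ± 0.15), and cnp-3 had 14.8, 14.2 and 16.7 CPM with magnolol, against 34.7, 27.8 and 26.4 CPM in control (-0.96 ± 0.13). The magnolol libraries stood about 2-fold below the control libraries in these genes. The acyl-CoA synthetase gene acs-7 had 18.5, 21.6 and 22.6 CPM with magnolol, against 37.1, 40.6 and 32.7 CPM in control (-0.82 ± 0.12, adjusted p = 0.000779). The globin gene glb-1 had 29.5, 25.9 and 29.9 CPM with magnolol, against 42.9, 44.4 and 50.8 CPM in control (-0.70 ± 0.10, adjusted p = 0.00114). Of the others in the plot of the largest falls, T05F1.11 was not called without control 1 or 2 (adjusted p = 0.0611 and 0.0676), C05C10.7 without magnolol 2 or 3 (0.087 and 0.0673) and F09F7.6 without magnolol 2 or 3 (0.134 and 0.063) or control 2 or 3 (0.1 and 0.106). ZK970.7 was not called without magnolol 2 or 3 (0.14 and 0.0735) or control 1, 2 or 3 (0.0728, 0.0742 and 0.125).

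**Figure D4:**
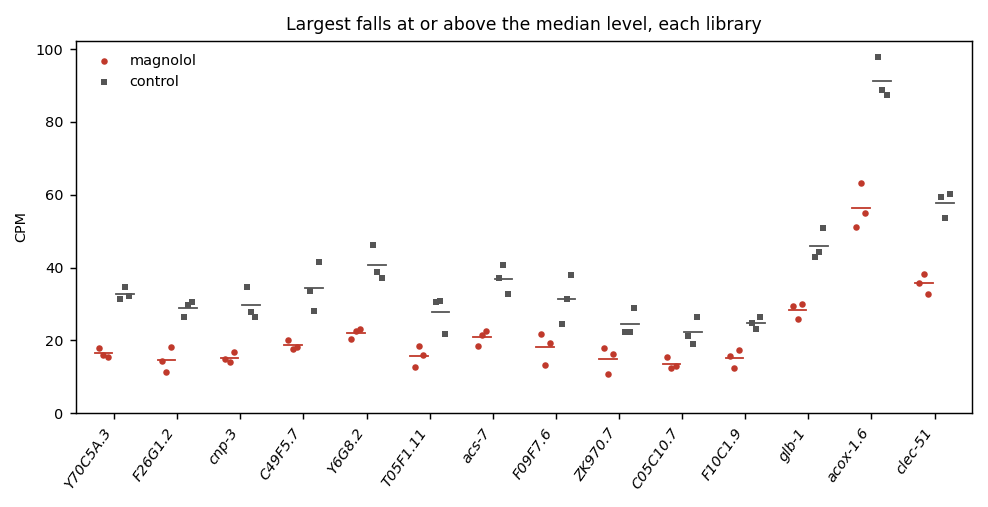
CPM from 0 on a linear axis for 14 of the 15 largest falls at or above the median level (a row without a symbol is left out), with magnolol libraries as red circles left of control libraries as grey squares and a bar at each group's mean. The genes were chosen among called rows whose groups did not overlap, so the separation of the groups comes from that choice. The gap is narrow in F09F7.6.

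Both genes called in the peroxisomal list fell, and most of the others had values just below 0. The list holds genes of fatty acid oxidation together with peroxins and the catalase gene ctl-2. In nematodes peroxisomal fatty acid oxidation shortens the fatty side chains of ascarosides, the pheromones of the worm. Its enzymes include acyl-CoA oxidases (acox), the hydratase MAOC-1, the dehydrogenase DHS-28 and the thiolase DAF-22. Of 21 tested genes 2 fell, 19 were not called and 19 had a log2 change below 0, peroxins among them (9.52% called lower). The median was -0.10, against -0.007 over all tested rows. The transcript of acox-1.6 had 51.1, 63.3 and 55.04 CPM with magnolol, against 98.0, 88.8 and 87.4 CPM in control (-0.69 ± 0.10, adjusted p = 0.000692). The transcript of acox-3 had 63.3, 65.2 and 67.5 CPM with magnolol, against 90.4, 93.3 and 90.8 CPM in control (-0.49 ± 0.08, adjusted p = 0.00287). In both genes the groups were clearly separated.

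Members that missed the threshold were daf-22, at 95.4, 83.5 and 98.8 CPM with magnolol, against 118, 138 and 107 CPM in control (-0.39 ± 0.11, adjusted p = 0.0762), and dhs-28, at 158, 158 and 171 CPM with magnolol, against 200, 215.5 and 189 CPM in control (-0.31 ± 0.09, adjusted p = 0.0804). The values of acox-1.4 (-0.34 ± 0.10), maoc-1 (-0.31 ± 0.12) and the peroxisomal catalase gene ctl-2 (-0.29 ± 0.09) were of the same size and not called either. These 5 genes were named after their values were seen. With the correction for exon length 6 members of the list were called lower and the median was -0.18, and DESeq2 called 5. The peroxins, which build the organelle, were not called. They ran from -0.22 ± 0.13 in prx-3 to 0.29 ± 0.11 in prx-14.

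Lists for which the test called no member included the endoplasmic reticulum stress list (0 of 18, with 3 at an unadjusted p under 0.05, 1 called by DESeq2 and 0 by limma-voom), the proteasome (0 of 32, with 1, 0 and 0) and the respiratory chain (0 of 46, with 6, 1 and 0). The stress reporters hsp-4 (0.10 ± 0.10), hsp-6 (0.33 ± 0.10), gcs-1 (-0.01 ± 0.09), sod-3 (0.47 ± 0.27) and mtl-1 (-0.70 ± 0.29) were not called. Other genes of the same fixed set were called. The gpdh-1 gene was higher (0.49, adjusted p = 0.0103), a call lost without magnolol 3 (0.109) or control 2 (0.0545). The insulin-like gene ins-33 was lower (-1.38, adjusted p = 0.00402), also with any 1 library left out. The ftn-1 gene was lower (-0.65, adjusted p = 0.0471), and of the fits without 1 library only that without control 1 (0.0275) called it. The hypoxia and hydrogen sulfide list had 2 lower members of 13 (15.4%, against 0.847% of all tested rows), and 1 when any 1 library was left out. It includes ethe-1, the gene of a mitochondrial sulfur dioxygenase, at 11.3, 11.2 and 12.65 CPM with magnolol, against 16.3, 19.4 and 21.7 CPM in control (-0.71 ± 0.14, adjusted p = 0.00928, and 0.0538 without magnolol 2). Ribosomal protein genes had 3 lower members of 69 (4.35%) and a median of -0.02. The number of lower members was 1 without magnolol 2, magnolol 3 or control 3. With the correction for exon length 6 were higher, 1 was lower and the median was 0.11, so their direction turned. The sperm list likewise had 4 lower members of 72 (5.56%), with a median of -0.17 that became 0.01 after that correction. Its number of lower members was 0 without magnolol 2, 0 without control 3 and 2 without magnolol 1, magnolol 3 or control 1.

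**Figure D5:**
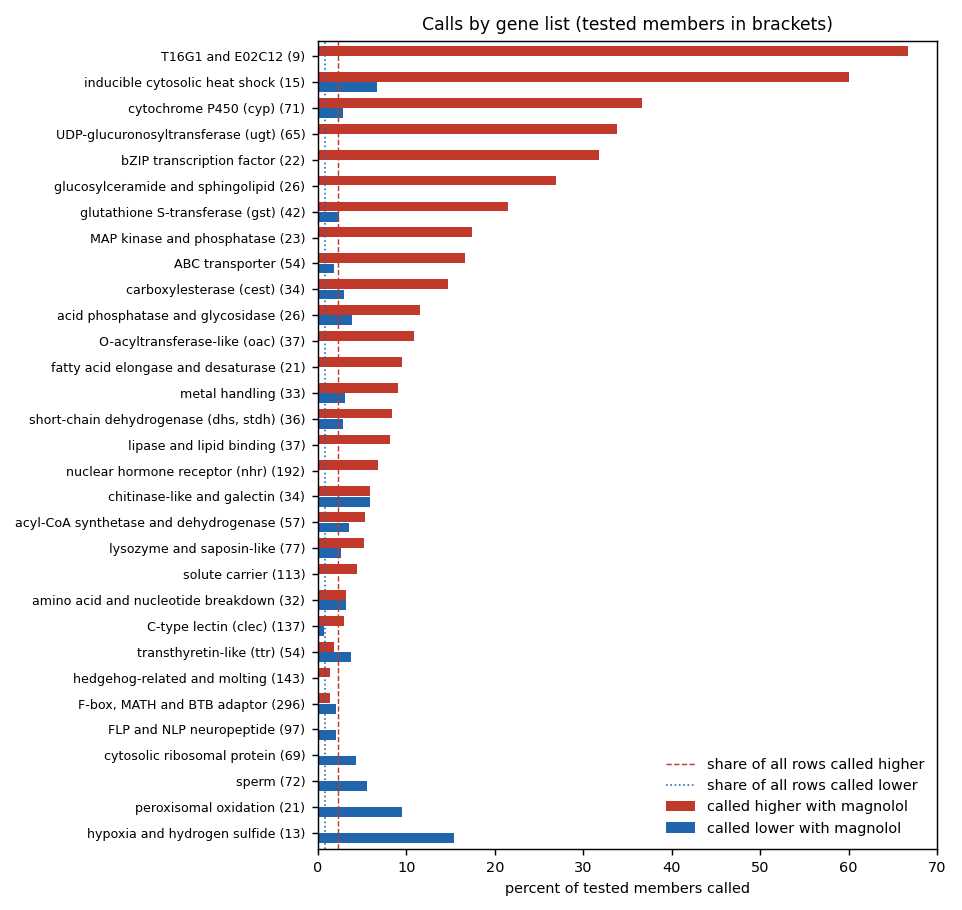
Percent of tested members called higher (red) and lower (blue) with magnolol for each list with at least 2 called members, with the number tested in brackets. The dashed line marks the share of all tested rows called higher (2.23%) and the dotted line the share called lower (0.847%); the T16G1 and E02C12, heat shock, P450, glucuronosyltransferase, bZIP and sphingolipid lists have the longest red bars.

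Raised genes were spread unevenly over the genome. On chromosome V 132 of 2964 tested genes rose (4.45%), against 24 of 2287 on chromosome I (1.05%) and 52 of 2000 on the X chromosome (2.60%). Of 326 raised protein-coding genes with a position, 57 (17.5%) had a raised gene as their direct protein-coding neighbour, against 419 of 13892 other tested genes (3.02%). Families that arose by local duplication lie side by side, and neighbours with similar sequence may share reads, so these counts are a description. The 23 runs include genes of different families, such as srr-6, srr-4, cpt-4 and swt-7 at chrV:5012803-5030815. In that run srr-6 had 29.3, 25.8 and 29.3 CPM with magnolol, against 1.89, 4.36 and 2.61 CPM in control (3.25 ± 0.23, adjusted p = 5.41e-07), and srr-4 changed by 1.52 ± 0.10, both named after their values were seen.

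Within each group 1 library stood apart. Chi-square per degree of freedom between replicates was 41.2 and 32.3 for magnolol 2 against magnolol 1 and 3 and 8.41 between those, and it was 32.4 and 36.6 for control 3 against control 1 and 2 and 11.7 between those. Without magnolol 2 and control 3 there were 569 higher rows (3.49% of 16309 tested) and 172 lower rows (1.05%). Across 14149 uncalled genes the log2 change rose with exon length (Spearman rho 0.37, a description over genes that share libraries). Its median was 0.11 in genes with 2025 to 27088 bases of exons, with 90 higher and 9 lower rows, and -0.15 in genes with 102 to 903 bases, with 47 higher and 61 lower rows. After a correction of each library for that trend 468 rows were higher (2.89%) and 173 lower (1.07%), and 348 of the 361 and 112 of the 137 were called again. The part of this trend in the single results was not tested beyond that correction. Marker lists for 11 tissues and stages were all detected, with no tested member at 0 in any library, and their only calls were tnc-2 lower and perm-2 higher. The summed adult yolk markers were at 20210, 30850 and 21410 CPM with magnolol, against 19990, 16950 and 19690 CPM in control.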

How the data were processed

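RNA from whole worms was sequenced and the authors deposited raw read counts per gene row for all libraries. The genome build WBcel235 and DESeq2 are named per the submitters' processing notes; the sources used here do not name the aligner or counter, its strand setting or its treatment of multiply mapped reads. The rows hold 20257 gene models and 1052 added loci, and 3 rows carry a date in place of a symbol, 1 of them called higher.

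From these counts, rows were kept by edgeR's filterByExpr, scaled by TMM and tested two-sided with edgeR 4.0.16 (quasi-likelihood test, R 4.3.3) over the magnolol and control libraries alone, with Benjamini-Hochberg adjustment over 16170 rows and a threshold of 0.05. The fit had 4 residual degrees of freedom and a biological coefficient of variation of 13.7%. CPM values use the TMM-scaled library sizes. On counts simulated for this comparison over 16170 genes, the test recovered 40.3%, 74.6% and 89.4% of 1.5-, 2- and 4-fold changes, and 9.3% of its calls were false. That false share lies above the adjusted p threshold of 0.05. The simulation drew genes independently, without the exon-length trend of the real counts, so its rates may not hold for them. Alternatives were DESeq2 1.42.0, limma-voom (limma 3.58.1), other scalings and filters, a lowess correction for exon length and each library left out.

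The 63 gene lists were made from symbols and are described by counts and medians, with no test of a list. Members and lists were chosen with earlier results of these data known. Genes were named by rule: the 15 largest rises outside the detoxification and heat shock lists and the 15 largest falls, at or above the median CPM of 15.9; the up to 4 smallest p-values of each list with at least 3 calls; up to 2 of each list with fewer; and a set of known stress and lipid genes. The largest rises and falls were taken from called rows whose groups did not overlap. T16G1.5 and other genes outside the rule, uncalled list members among them, were named after their values were seen. Positions come from the Ensembl WBcel235 annotation, matched by symbol for 98.7% of gene models that have one. A protein similarity search and a promoter motif search were not run. Figures were drawn with matplotlib 3.10.9.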

Additional observations from a re-analysis of the deposited data

How the results depend on the processing

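No named gene reversed its call under the alternatives run. The balance of higher and lower calls turned in the lysozyme list with DESeq2. With the exon-length correction it turned in the ribosomal protein, acyl-CoA, transthyretin-like and cuticle collagen lists, and in that of potassium and DEG/ENaC channels. That correction also turned the sign of several list medians near 0, such as the respiratory chain (-0.04 to 0.03) and ABC transporters (0.06 to -0.03), and of the sperm (-0.17 to 0.01) and insulin-like lists (-0.21 to 0.01). The 361 higher rows became 569 without magnolol 2 and control 3, an alternative chosen after seeing the data, and 167 with a 2-fold minimum; leaving out 1 library gave 243 to 436. The 137 lower rows became 172 without that pair of libraries, 229 with no low-count filter, 301 with DESeq2, 40 at an adjusted p under 0.01 and 15 with the 2-fold minimum, and leaving out 1 library gave 49 to 108; the cause was not tested. Apart from these and the replicate block, the other settings gave 242 to 538 higher and 118 to 195 lower rows. Same-numbered magnolol and control libraries did not deviate together (correlations -0.206, -0.141 and -0.137 over 8085 genes). Deviations were taken within groups of 3, where 1 library stood apart, so these values cannot show whether same-numbered samples were prepared together. With the replicate block 268 rows were higher and 71 lower, and with the block and the exon-length correction 374 and 96. Of 147 called genes named by the rule 102 were called under every setting. With 3 libraries a group, many changes under 2-fold are not detectable at this depth and spread.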
